A study of Mus musculus with 18 samples.

Results

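Mouse eosinophils kept with interleukin 4 (IL-4) were compared with unstimulated eosinophils across all genes, in 6 of the 18 RNA libraries of a series on eosinophil activation. The libraries were taken by treatment and by the layout of their count files. They are the 3 IL-4 libraries, numbered 1 to 3, and the 3 unstimulated libraries d to f, whose files list the same genes. The other 12 libraries, with *E. coli*, IFN-γ, both, or no stimulus (a to c), have another file layout and were used only in an alternative fit. The study asks how eosinophils respond to agents of Type 1 and Type 2 immune settings. Both groups are labelled as eosinophils of strain C57BL/6. By the study's methods the cells came from the peritoneal cavity of mice with an *Il5* transgene (line NJ.1638), were freed of Thy1.2 and B220 positive cells with antibody-coated beads, and were cultured in medium with serum. The IL-4 group received 100 ng/ml IL-4 and was kept for 18 h. The unstimulated group received none, and its time in culture is not stated. Neither labels nor methods give the promoter of the transgene, the age of the mice, or whether a library is 1 mouse or a pool.

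IL-4 is the signature cytokine of Type 2 immunity, made by T helper 2 cells, basophils, innate lymphoid cells and eosinophils. It binds the chain encoded by *Il4ra*, which pairs with the common γ chain (*Il2rg*) or with the IL-13 receptor chain (*Il13ra1*), and JAK kinases bound to these chains phosphorylate the transcription factor STAT6. In macrophages this route switches on the genes of alternative activation, such as *Retnla*, *Chil3*, *Mrc1* and *Ccl17*. Eosinophils carry the same receptor. They are granulocytes that live on IL-5, follow CCL11 and CCL24 through the receptor CCR3, and are known in the mouse by the lectin Siglec-F.

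Counts on genes totalled 3625036, 6482289 and 5294968 in unstimulated libraries d, e and f, and 5121421, 5909700 and 3827767 in IL-4 libraries 1, 2 and 3. Levels are given as CPM, on library sizes scaled by the TMM method of edgeR, with libraries d, e and f (without IL-4) and then IL-4 libraries 1, 2 and 3 (with IL-4) in that order throughout. A level of 3 counts, 0.497 to 0.833 CPM per library, is taken as the lowest that can be told from 0, and it covers counting error only. The IL-4 libraries were close to each other, with a root mean square difference between 2 libraries of 0.392 to 0.471 log2 units over the tested genes. Among the unstimulated libraries it was 0.518 between d and f, 0.673 between e and f and 0.754 between d and e, and across the groups 0.638 to 0.904. Library e therefore stood apart from d and f. Genes that are not protein coding held 3.97, 1.92 and 2.79% of the counts in d, e and f and 3.73, 3.81 and 4.05% in the IL-4 libraries, and mitochondrially encoded genes 4.35, 2.44 and 2.94% and 3.64, 3.53 and 4.23%. Both shares were lowest in e. An exact two-sided permutation test between the groups gave p = 0.3 and 0.5, and with 3 against 3 it cannot go below 0.1.

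The labelled cell type was checked on marker genes. The 20 eosinophil markers summed to 14889, 17074 and 14604 CPM without and 13172, 13798 and 13238 CPM with IL-4, and *Cd24a* drew the most counts. *Siglecf*, the gene of Siglec-F, was at 676, 740.2 and 707 CPM without and 929.7, 907 and 938 CPM with IL-4. *Ccr3*, the eotaxin receptor, was at 1864, 2673 and 1911 CPM without and 1279.7, 1392 and 1233 CPM with IL-4. Both were far above the floor in every library, as was *Alox15*, at 2414, 2337 and 2455 CPM without and 2345, 2437 and 2439.8 CPM with IL-4. Transcripts of granule proteins made early in eosinophil development were low: *Epx*, eosinophil peroxidase, was at 1.39, 2.15 and 1.32 CPM without and 3.61, 2.49 and 2.85 CPM with IL-4, and *Prg3* lay between 0.778 and 3.66 CPM. *Ptgdr2*, which encodes a prostaglandin D2 receptor of eosinophils, did not pass 3 counts in any library. Of the 19 markers tested, 5 were called higher with IL-4 and 4 lower (2, 2, 2, 3 and 2 higher without IL-4 libraries 1, 2 and 3 and libraries d and f). Over all 10556 genes tested, 5.97% were called higher and 4.35% lower. Counts of called members, here and in every list that follows, are to be set beside these shares. *Siglecf* was called higher and *Ccr3* lower, with log2 fold changes of 0.39 and -0.72 (adjusted p = 0.0383 and 0.0117). *Adgre1*, the gene of F4/80, and its relative *Adgre4* were lower, with -0.801 and -0.87 (adjusted p up to 0.0186). The calls of *Cd24a*, *Siglecf*, *Ccr3* and *Adgre4* ended without 1 or more of IL-4 libraries 1, 2 and 3 and unstimulated libraries d and f, with adjusted p-values of up to 0.182, 0.142, 0.0668 and 0.0816. *Cd24a* in a fit of all 18 libraries, *Cd24a* under a minimum of 10 counts in every library, *Cd24a* under a robust dispersion and *Siglecf* with no filter on low counts lost it too. Exons of *Ptgdr2* overlap a gene on the opposite strand. Near-identical copies exist for *Cd24a* (*Gm6212*).

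Transcripts of other cells were looked for in the same way. The 20 macrophage markers summed to 3514, 3289 and 3901 CPM without and 2802, 2702 and 3111 CPM with IL-4, with most counts on *C1qc*, and none of them was at or under 3 counts in all libraries. Neutrophil markers summed to 2313, 2353 and 2043 CPM without and 879, 917 and 860.1 CPM with IL-4, of which *Retnlg* made up 83.6%. Both sums, like those of the eosinophil, platelet and erythroid markers, were lower in every IL-4 library than in any unstimulated one, and the mast cell sum was higher in every one, while dendritic cell markers, with most counts on *H2-Ab1*, summed to 713, 881 and 1067 CPM without and 918, 866 and 1293 CPM with IL-4 and overlapped. Platelet markers, with most counts on *Thbs1* and *Gp9*, *Gp1bb* and *Tubb1* at 0, were at 1356 ± 76.1 and 1017 ± 32.03 CPM (SD, n = 3) without and with IL-4. B cell markers were at 234 ± 19.6 and 244 ± 15.6 CPM, most of it *Bank1*. Mast cell and basophil markers, with most counts on *Hdc*, were at 132 ± 22.4 and 168 ± 7.09 CPM, with *Mcpt8*, *Ms4a2* and *Fcer1a* at or under 3 counts in all libraries. The sum of 24 T and NK cell markers was 7.34 ± 1.06 and 7.39 ± 2.17 CPM, with *Cd4*, *Cd8a*, *Lck* and 13 others at or under 3 counts throughout. Plasma cell, erythroid, and mesothelial and fibroblast markers summed to under 126 CPM in each library except for the erythroid sum of library e, which was that value. The ILC2 list was 69.96% *Il5*, at 325, 392 and 245 CPM without and 264, 294 and 226 CPM with IL-4, which overlapped (adjusted p = 0.324), and transgene and native transcript cannot be told apart in the counts. Called higher were *Xcr1*, *Clec10a*, *Ciita* and *Batf3* of 9 tested dendritic cell markers, *Cd79b*, *Ms4a1* and *Ighm* of 7 B cell markers (0, 1, 0, 2 and 5 higher without IL-4 libraries 1, 2 and 3 and libraries d and f), *Irf4* of 4 plasma cell markers and *Hdc* of 5 mast cell markers. Called lower were *Ppbp*, *Gp6* and *Thbs1* of 8 platelet markers, *Hbb-bt* and *Hbb-y* of 5 erythroid, *Bank1* of the B cell, *Sdc1* of the plasma cell, *Cd200r3* of the mast cell and *Il13* of 8 ILC2 markers. The 1 T and NK cell marker and the 4 mesothelial and fibroblast markers that could be tested were not called, also not by DESeq2 or at an unadjusted p under 0.05. The RNA is from bulk cells, so fewer cells of a type and less RNA per cell cannot be told apart. With single libraries left out, *Thbs1*, *Bank1*, *Hdc*, *Xcr1*, *Clec10a*, *Ciita*, *Cd79b*, *Ms4a1*, *Ighm*, *Gp6*, *Hbb-bt*, *Sdc1* and *Cd200r3* were each not called at least once (IL-4 libraries 1, 2 and 3 and unstimulated libraries d, e and f; adjusted p up to 0.1003, 0.0937, 0.136, 0.204, 0.1904, 0.211, 0.116, 0.101, 0.0954, 0.132, 0.181, 0.136 and 0.136). *Xcr1*, *Clec10a*, *Ciita*, *Hbb-bt* and *Sdc1* under DESeq2, *Hbb-bt* in a fit of all 18 libraries, *Sdc1* with no filter on low counts and *Cd200r3* under a minimum of 10 counts in every library lost it too. *Thbs1*, *Il5* and *Ciita* share exon positions with genes of the other strand. Another gene holds a near-identical copy of *Clec10a* (*Mgl2*), *Hbb-bt* (*Hbb-bs*) and *Cd200r3* (*Gm26905*).

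Of 10556 genes tested with edgeR, 630 (5.97%) were higher and 459 (4.35%) lower with IL-4 at an adjusted p under 0.05, 10.3% in all. Their median log2 fold changes were 1.04 and -0.83, and over all tested genes the median was 0.00. Call and overlap rest on the same 6 libraries, so a lack of overlap, here and below, describes a called gene and adds no support to the call. The groups did not overlap for 1088 of the 1089 called genes, against 31.3% of all tested genes. The exception was *Acsl1*, a fatty acid activating enzyme chosen here after its values were seen, at 21.4, 45.7 and 43.04 CPM without and 12.4, 11.5 and 22.03 CPM with IL-4 (log2 fold change -1.303, SE 0.32, adjusted p = 0.0275). Rises outnumbered falls among weakly expressed genes and not among the strongest: 140 genes were higher and 39 lower among the 3511 under 10 CPM, and 13 higher and 22 lower among the 121 at 1000 CPM or more. Without IL-4 library 1, 2 or 3 the genes higher numbered 312, 311 and 318 and those lower 171, 184 and 197, and without library e they numbered 812 and 582. Called whichever single library was left out were 257 of the genes higher and 147 of those lower, and for the gene lists that follow, the members that kept their call are counted in this way. Calls of gene lists also changed when a library was left out, and where a count that is 5 or more in either fit moved by over 1.5 times the counts without the libraries concerned stand in brackets. Whether the counting used the strand of a read is not stated, so genes whose exons overlap another gene are named, as are genes with a copy in another gene that is at least 95% identical over at least 200 bases. *Acsl1* lost the call without IL-4 library 1 or 2 or unstimulated library f, at an adjusted p of up to 0.138. A gene on the opposite strand overlaps exons of *Acsl1*.

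**Figure D1:**
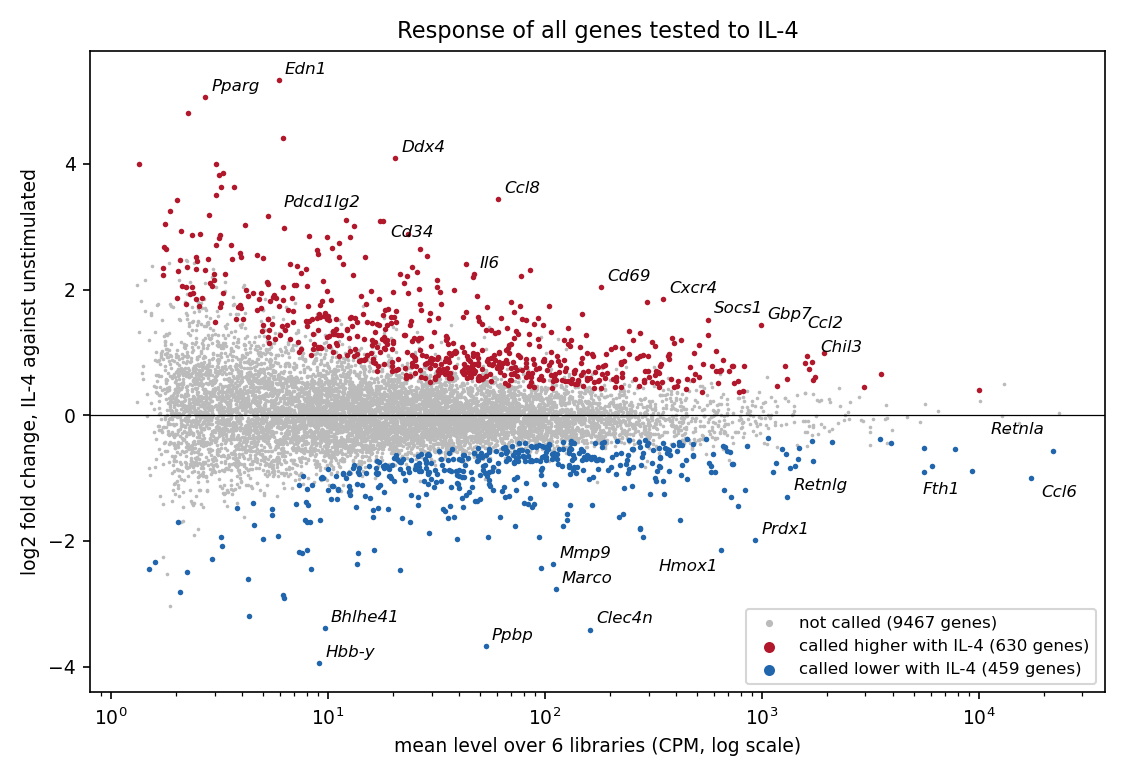
Mean level of each of 10556 tested genes over the 6 libraries (CPM, log scale) against its log2 fold change, IL-4 against unstimulated; each point is a gene, red called higher, blue called lower and grey not called. The largest rises, such as *Edn1* and *Pparg*, are in genes of low level, and among the genes of highest level *Ccl6*, *Retnla* and *Fth1* fell.

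The IL-4 receptor and its first signalling steps did not move as a group. Of the 16 tested genes of the receptor and proximal signalling list, 1 was higher, with a median log2 fold change of -0.02, against 0.00 for all genes. *Il4ra* was at 111, 143 and 104 CPM without and 114, 120.5 and 107 CPM with IL-4, and *Stat6* was at 171, 218 and 140.4 CPM without and 169, 180.1 and 175 CPM with IL-4. The groups overlapped for both genes. *Il2rg*, *Jak1* and *Irs2* also overlapped, with log2 fold changes of -0.25, 0.13 and -0.02. The kinase gene *Jak2* was the member called higher, at 209.7, 204 and 213 CPM without and 323, 325 and 284 CPM with IL-4 (log2 fold change 0.57, SE 0.11, adjusted p = 0.00969). Among inhibitors of JAK kinases, which cytokines switch on as feedback, 3 of 8 tested SOCS and CIS genes were higher, and 2 of these were called whichever library was left out. *Socs1* (ENSMUSG00000038037, chromosome 16, 10782240 to 10785536) was at 319.7, 259 and 293 CPM without and 800.3, 778 and 925 CPM with IL-4. Every IL-4 library was above every unstimulated one (log2 fold change 1.52, SE 0.13, adjusted p = 9.61e-05). *Socs3*, which restrains IL-6 family signalling, was at 55.5, 68.6 and 58.1 CPM without and 159, 155 and 142 CPM with IL-4. It too was high in all 3 IL-4 libraries, with no overlap (log2 fold change 1.32, SE 0.13, adjusted p = 2.37e-04). *Cish* differed by 0.54 log2 units (adjusted p = 0.0311). The calls of *Jak2* and *Cish* ended without 1 or more of IL-4 libraries 1, 2 and 3 and unstimulated libraries d and f, with adjusted p-values of up to 0.0692 and 0.1602. Exons of *Il4ra*, *Stat6*, *Jak1*, *Irs2* and *Cish* overlap a gene on the opposite strand. *Il2rg* overlaps another gene on the same strand.

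Of 14 tested STAT and IRF genes, 5 were higher (median log2 fold change 0.20), and 4 kept the call whichever library was left out. *Irf4*, which encodes a factor needed for alternative activation of macrophages, was at 0.555, 0.663 and 1.51 CPM without and 5.52, 7.14 and 5.96 CPM with IL-4. It was near the floor in the unstimulated cells and clear of it with IL-4 (log2 fold change 2.71, SE 0.46, adjusted p = 0.00427). *Irf1* was at 265, 225 and 269 CPM without and 505, 515 and 466 CPM with IL-4. *Stat2*, which carries interferon signals, was also high in all IL-4 libraries, with a log2 fold change of 0.78 (adjusted p = 0.00227), beside 0.97 for *Irf1* and 0.58 for *Irf2* (adjusted p up to 0.02196). Of the 21 transcription factors of the eosinophil lineage, 1 was higher and 3 were lower, and 1 and 1 kept the call. These are 4.76 and 14.3%, against 5.97 and 4.35% of all genes tested. *Bhlhe41*, a repressor that also acts in the circadian clock, was at 15.6, 18.6 and 18.7 CPM without and 1.33, 1.66 and 2.07 CPM with IL-4. It was the 1 called gene among 15 clock genes, and it fell to near the floor (log2 fold change -3.39, SE 0.28, adjusted p = 9.61e-05). Its paralogue *Bhlhe40* was at 349, 555 and 377 CPM without and 370.4, 414 and 357 CPM with IL-4, which overlapped. *Cebpa* and *Cebpb* fell, with changes of -1.43 and -0.54 log2 units (adjusted p up to 0.02499), and *Id1*, an inhibitor of helix-loop-helix factors, rose, with 0.98 (adjusted p = 0.00371). The lineage factors *Gata1*, *Spi1* and *Cebpe* were not called, at -0.23, -0.15 and 0.41. With single libraries left out, *Irf2*, *Cebpa* and *Cebpb* were each not called at least once (IL-4 libraries 1, 2 and 3 and unstimulated library d; adjusted p up to 0.124, 0.0731 and 0.102). *Irf1*, *Bhlhe41*, *Bhlhe40*, *Cebpa* and *Cebpb* share exon positions with genes of the other strand.

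The largest rises were in genes of several kinds. *Edn1* (ENSMUSG00000021367, chromosome 13, 42301476 to 42307990), the gene of the vasoconstrictor endothelin-1, was at 0, 0.497 and 0.189 CPM without and 11.4, 13.3 and 10.1 CPM with IL-4. No unstimulated library passed 3 counts, and the ratio of the pooled levels was 44.2, with a 95% Clopper-Pearson interval of 16.95 to 164 for counting error alone (adjusted p = 1.86e-04). *Pparg*, which encodes a fatty acid sensing nuclear receptor of alternatively activated macrophages, was at 0.278, 0.166 and 0 CPM without and 7.23, 4.98 and 3.63 CPM with IL-4. It too did not pass 3 counts without IL-4, with a ratio of 40.5 (10.9 to 339.7) and the same kind of interval in brackets (adjusted p = 0.00158). *Vdr*, the vitamin D receptor, and *Myb*, a factor of blood progenitors, were low without IL-4 and high in all 3 IL-4 libraries, with log2 fold changes of 2.85 and 3.01 (adjusted p up to 0.00328). *Ddx4*, an RNA helicase of germ cells, was at 3.05, 1.82 and 2.08 CPM without and 41.3, 40.5 and 33.2 CPM with IL-4, a separation of all IL-4 from all unstimulated libraries (log2 fold change 4.09, SE 0.24, adjusted p = 2.33e-05). *Grm6*, a glutamate receptor of the retina, was at 0.278, 0.331 and 0.944 CPM without and 12.4, 13.3 and 9.85 CPM with IL-4. The 15 largest rises were taken among genes at a mean of 10 CPM or more with IL-4, which *Pparg* does not reach. Others of these 15 were *Dio2*, which activates thyroid hormone, *Flt1*, a VEGF receptor, *Mapt*, a microtubule binding protein, and *Rasl11b*, *Arhgef39* and *G430095P16Rik*, with log2 fold changes of 2.99, 2.83, 2.73, 2.88, 2.66 and 2.84 (adjusted p up to 0.00892). The small proline-rich genes of skin, *Sprr2e* and *Sprr2f*, were 2 of 3 tested barrier genes and were both higher. *Sprr2e* was at 1.39, 0.663 and 0.378 CPM without and 6.85, 4.65 and 4.93 CPM with IL-4, and *Sprr2f*, under the floor without IL-4, had a ratio and interval of 33.1 (8.802 to 279) (adjusted p up to 0.00614). *Edn1*, *Pparg* and *Sprr2f*, like *Ccl17* and *Ido1* below, passed the filter on low counts through the IL-4 libraries alone. They were thus tested because they were high there, and their folds and adjusted p-values carry that choice. In fits without 1 library, log2 fold changes of *Edn1*, *Pparg* and *Sprr2f* ran from 4.96 to 6.40, 4.51 to 5.58 and 4.16 to 7.46. Those of *Vdr*, *Arhgef39* and *Flt1* ran from 2.51 to 3.78, 2.30 to 3.28 and 2.44 to 4.15. *Flt1* lost the call without IL-4 library 3, at an adjusted p of up to 0.0558. A gene on the opposite strand overlaps exons of *Edn1*, *Myb*, *Grm6*, *Dio2* and *G430095P16Rik*.

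The 15 largest falls, among genes at a mean of 10 CPM or more without IL-4, were as varied. *Hbb-y*, an embryonic globin gene, was at 12.8, 25.7 and 13.02 CPM without and 0.571, 1.99 and 0.518 CPM with IL-4. The IL-4 libraries were all low (log2 fold change -3.95, SE 0.49, adjusted p = 8.66e-04), with -4.92 to -3.52 as single libraries were left out. *Gdf15*, a stress-induced cytokine, was at 11.9, 10.1 and 10.8 CPM without and 1.14, 1.33 and 2.07 CPM with IL-4, and *Met*, the receptor of hepatocyte growth factor, was at 29.2, 42.2 and 37.2 CPM without and 7.61, 3.32 and 9.33 CPM with IL-4. Neither overlapped between the groups, with log2 fold changes of -2.87 and -2.47 (adjusted p up to 9.25e-04). *Cd1d1*, which presents lipids to NKT cells, *Cgnl1*, of cell junctions, and *Pprc1*, a coactivator for mitochondrial genes, followed with -2.199, -2.37 and -2.17 (adjusted p up to 0.00495). Among the 5 largest gains in CPM were *Grn*, which encodes the growth factor progranulin, from 2756 ± 263 to 4344 ± 93.02 CPM, and *Ly6e*, an interferon-induced surface protein, from 8582 ± 850.1 to 11350.3 ± 345 CPM (SD, n = 3; adjusted p up to 0.0358). The call of *Ly6e* ended without IL-4 library 1, 2 or 3 or unstimulated library d (adjusted p up to 0.162). *Ly6e* in a fit of all 18 libraries lost it too. Exons of *Pprc1* and *Grn* overlap a gene on the opposite strand. Reads could also come from near-identical copies of *Cd1d1* (*Cd1d2*).

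Of 37 tested genes of alternative macrophage activation, 20 were higher and 3 lower with IL-4 (median log2 fold change 1.06, against 0.00 for all genes), and 13 and 1 of these were called whichever library was left out (13 higher without IL-4 library 3). *Pdcd1lg2* (ENSMUSG00000016498, chromosome 19, 29410919 to 29471161), the gene of the checkpoint ligand PD-L2, was at 2.78, 1.99 and 2.83 CPM without and 22.6, 19.8 and 22.8 CPM with IL-4. Every IL-4 library was far above the unstimulated ones (log2 fold change 3.11, SE 0.25, adjusted p = 9.61e-05). *Chil4* and *Chil3* encode chitinase-like proteins. *Chil3*, already abundant, was at 1194, 982 and 1485 CPM without and 2075, 2011 and 2502 CPM with IL-4, and *Chil4* was at 4.17, 2.32 and 1.89 CPM without and 12.2, 9.305 and 12.96 CPM with IL-4. Neither overlapped between the groups, with log2 fold changes of 0.85 and 2.08 (adjusted p = 0.00714 and 0.00408). *Tgm2*, a transglutaminase, was also higher (0.61, adjusted p = 0.0213). The textbook marker *Retnla* went the other way. It was at 24267, 31662 and 22761 CPM without and 16566, 17509 and 18977 CPM with IL-4. It drew the most counts of this list, and all IL-4 libraries were below all unstimulated ones (log2 fold change -0.57, SE 0.13, adjusted p = 0.0213). *Mrc1*, which IL-4 induces in macrophages, was not called. It was at 0.833, 5.96 and 2.45 CPM without and 4.38, 7.81 and 12.7 CPM with IL-4, which overlapped. *Mgl2* and *Egr2* were not called either, with log2 fold changes of 0.58 and 0.56. *Alox15*, a lipoxygenase that IL-4 induces in monocytes, differed by 0.00 log2 units. *Il10* and *Fn1* fell (log2 fold changes -1.92 and -0.63, adjusted p up to 0.0175). With single libraries left out, *Chil3*, *Tgm2*, *Retnla* and *Fn1* were each not called at least once (IL-4 libraries 1, 2 and 3 and unstimulated library f; adjusted p up to 0.0526, 0.102, 0.121 and 0.0837). *Tgm2* and *Fn1* share exon positions with genes of the other strand. Near-identical copies exist for *Mgl2* (*Clec10a*).

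Of 13 tested CC chemokines, 8 were higher and 3 lower, and 8 and 2 kept the call whichever library was left out. They sit in groups along the chromosomes. The monocyte attractants *Ccl2*, *Ccl7*, *Ccl12* and *Ccl8* lie on chromosome 11 between 82035571 and 82116799, on the same strand, and all 4 rose. *Ccl8* (ENSMUSG00000009185, chromosome 11, 82115185 to 82116799) was at 14.7, 8.45 and 8.49 CPM without and 114, 105 and 115 CPM with IL-4. Even the lowest IL-4 library was far above the highest unstimulated one. *Ccl2* was at 1273, 1017 and 1579 CPM without and 2489, 2534 and 2694 CPM with IL-4, *Ccl7* was at 76.9, 92.8 and 102 CPM without and 208, 218 and 234 CPM with IL-4 and *Ccl12* was at 23.6, 23.9 and 30.4 CPM without and 68.5, 72.3 and 79.6 CPM with IL-4. None of the 4 overlapped between the groups, with log2 fold changes of 0.996, 1.28, 1.496 and 3.43 in the order of position (adjusted p up to 0.00269). *Ccl11*, which encodes eotaxin-1 and lies between *Ccl7* and *Ccl12*, stayed under the floor in every library.

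Another group on chromosome 11, from 83525778 to 83664683, went mostly the other way. *Ccl6* (ENSMUSG00000018927, chromosome 11, 83587882 to 83593087), which with *Retnla* drew 4.54, 5.49 and 4.38% of all counts in libraries d, e and f and 2.86, 3.03 and 3.05% in the IL-4 libraries, was at 21453, 27300.4 and 21035 CPM without and 11305, 12216 and 11330.3 CPM with IL-4. It was lower in every IL-4 library than in any unstimulated one (log2 fold change -1.002, SE 0.12, adjusted p = 6.58e-04). *Ccl9*, its neighbour, was at 6463, 9242 and 6219 CPM without and 3785, 4043 and 3877 CPM with IL-4 (log2 fold change -0.91, SE 0.15, adjusted p = 0.00388). *Ccl3* fell from 47.9 ± 10.2 to 25.6 ± 8.21 CPM (SD, n = 3; adjusted p = 0.0423), while *Ccl4*, next to it on the opposite strand, rose from 162 ± 25.3 to 284 ± 15.4 CPM (adjusted p = 0.004403). *Ccl5*, at the other end, overlapped, with a log2 fold change of 0.01. *Ccl4* and *Ccl5* were chosen after their values were seen, as neighbours. *Ccl22* and *Ccl17*, whose products share the receptor CCR4 of T helper 2 cells, both lie on chromosome 8 and rose. *Ccl22* was at 7.499, 7.45 and 10.004 CPM without and 44.5, 42.04 and 59.6 CPM with IL-4, and *Ccl17* was at 0.278, 0.497 and 0.378 CPM without and 4.19, 4.82 and 9.59 CPM with IL-4. *Ccl17* was at or under the floor without IL-4, and its ratio and interval were 14.5 (6.39 to 40.5) (adjusted p = 0.00232), while *Ccl22* rose by 2.54 log2 units (adjusted p = 9.61e-05). The eotaxin gene *Ccl24* was at 34.4, 54.004 and 36.997 CPM without and 108, 105 and 150.3 CPM with IL-4, without overlap (log2 fold change 1.52, adjusted p = 0.00141). *Ccl3* lost the call without IL-4 library 2 or 3 or unstimulated library d, at an adjusted p of up to 0.153.

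**Figure D2:**
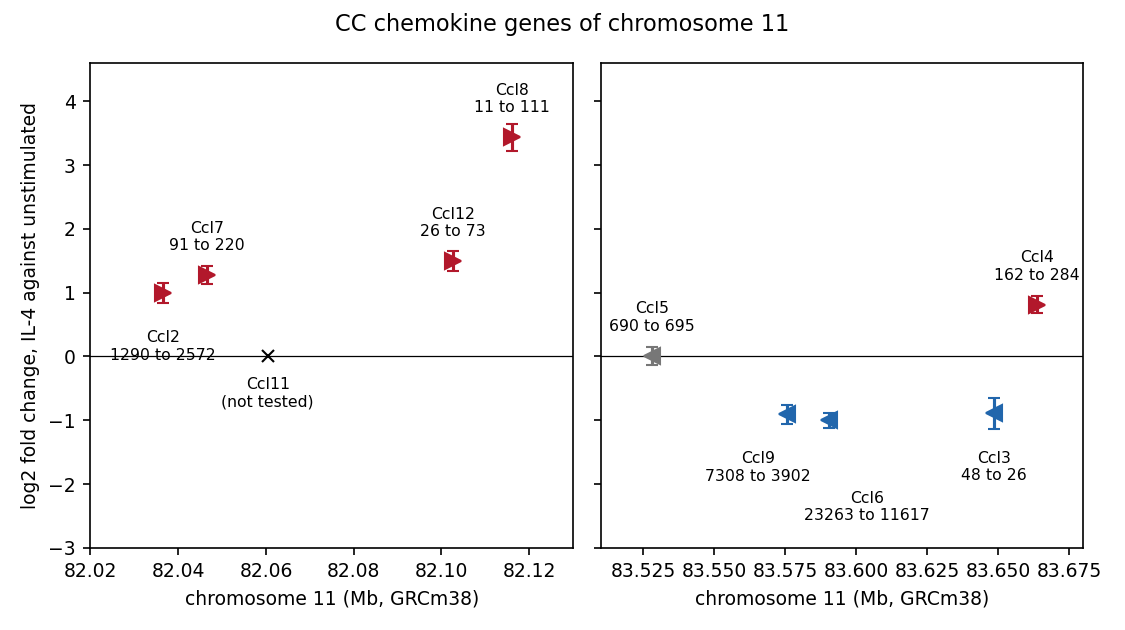
Position on chromosome 11 (Mb, GRCm38) of 10 CC chemokine genes against the log2 fold change, IL-4 against unstimulated, with bars of 1 SE; arrowheads point along the strand, red is called higher, blue called lower and grey not called, and the numbers are mean CPM without and with IL-4. The genes of the left group that could be tested rose, and in the right group *Ccl9*, *Ccl6* and *Ccl3* fell and *Ccl4* rose.

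Of 13 tested CXC and other chemokines, 1 was higher and 4 lower (median -0.603), and 0 and 3 kept the call. Platelet markers summed to means of 1356 and 1017 CPM without and with IL-4, and neutrophil markers to 2237 and 885 CPM. *Ppbp*, a platelet chemokine gene and 1 of these markers, was at 73.04, 157 and 65.9 CPM without and 7.42, 6.81 and 9.33 CPM with IL-4, and its IL-4 values were far below (log2 fold change -3.67, SE 0.35, adjusted p = 1.86e-04). *Cxcl3*, an attractant of neutrophils, was at 129.7, 136 and 116 CPM without and 43.2, 48.4 and 47.2 CPM with IL-4. Each of the IL-4 libraries was low (log2 fold change -1.46, SE 0.13, adjusted p = 1.31e-04). *Cxcl14* and *Cxcl13* fell too, with -1.33 and -0.67, and *Cxcl12* rose, with 1.78 (adjusted p up to 0.0397). Of 24 tested receptors for chemokines and other attractants, 4 were higher and 4 lower, and 2 and 2 kept the call. *Cxcr4*, the receptor of CXCL12, was at 137, 153 and 164 CPM without and 522, 533 and 588 CPM with IL-4. All IL-4 libraries were high (log2 fold change 1.85, SE 0.12, adjusted p = 2.63e-05). *Cxcr2*, a receptor that guides neutrophils, was at 3.89, 2.48 and 4.91 CPM without and 27.96, 25.4 and 42.8 CPM with IL-4, again without overlap (log2 fold change 3.09, SE 0.30, adjusted p = 2.04e-04). Both receptors for formylated bacterial peptides fell. *Fpr1* was at 166, 134 and 261 CPM without and 52.1, 56.3 and 57.5 CPM with IL-4. *Fpr2* was at 241, 181 and 299 CPM without and 72.7, 86.2 and 109.9 CPM with IL-4, and for both the IL-4 libraries were the low ones (log2 fold changes -1.76 and -1.43, adjusted p up to 0.00189). *C5ar2* and *Gpr183* were higher and *S1pr1* lower, with log2 fold changes of 1.28, 0.95 and -0.49 (adjusted p up to 0.0327). The calls of *Cxcl13*, *Cxcl12*, *C5ar2*, *Gpr183* and *S1pr1* ended without 1 or more of IL-4 libraries 1, 2 and 3 and unstimulated libraries d, e and f, with adjusted p-values of up to 0.159, 0.104, 0.106, 0.1197 and 0.147. *Cxcl13* in a fit of all 18 libraries lost it too. *Fpr2* and *C5ar2* overlap another gene on the same strand. Another gene holds a near-identical copy of *Cxcr2* (*Gm48735*) and *Fpr2* (*Gm5966*).

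Among 25 tested interleukins and other cytokines, 6 were higher and 3 lower with IL-4, of which 4 and 2 kept the call. *Il6* was at 19.4, 13.4 and 16.6 CPM without and 83.3, 77.1 and 71.5 CPM with IL-4. It was several times higher in each IL-4 library than in any unstimulated one (log2 fold change 2.24, SE 0.17, adjusted p = 7.66e-05). *Il1b* rose from 81.8 ± 12.3 to 149 ± 15.5 CPM, *Tnfsf10*, which encodes the death ligand TRAIL, from 17.3 ± 6.51 to 43.97 ± 1.87 CPM and *Il16* from 15.6 ± 1.51 to 36.1 ± 4.44 CPM (SD, n = 3; adjusted p up to 0.005201). *Il19* was at 0, 0 and 1.32 CPM without and 7.99, 5.65 and 4.41 CPM with IL-4 (adjusted p = 0.0175), with a log2 fold change of 3.63, or 2.94 to 7.91 as single libraries were left out, and *Mif* rose by 0.61 log2 units (adjusted p = 0.0343). *Il13*, a Type 2 cytokine that signals through the same receptor chain as IL-4, was at 12.2, 13.4 and 10.004 CPM without and 4.57, 2.99 and 3.63 CPM with IL-4. It was low in all IL-4 libraries (log2 fold change -1.67, SE 0.29, adjusted p = 0.00461). *Il10* was at 6.94, 8.12 and 12.8 CPM without and 2.85, 1.99 and 2.59 CPM with IL-4, likewise without overlap (log2 fold change -1.92, SE 0.36, adjusted p = 0.00716). *Tnf* fell from 17.2 ± 5.73 to 7.89 ± 1.68 CPM (adjusted p = 0.0389). *Il4* itself was at 41.9, 42.1 and 36.8 CPM without and 40.5, 44.5 and 34.2 CPM with IL-4, and the groups overlapped (log2 fold change -0.01). Of 35 cytokine receptors 7 were higher and 2 lower, and 3 and 0 kept the call (3, 3, 4 and 3 higher without IL-4 libraries 1 and 2 and libraries d and f; 5 lower without library e). *Cd40* and *Il1rap*, the coreceptor of IL-1 and IL-33, rose, with log2 fold changes of 1.13 and 1.47 (adjusted p up to 0.00277). *Il5ra*, the IL-5 receptor chain, was at 43.3, 38.4 and 41.3 CPM without and 65.4, 58.5 and 62.2 CPM with IL-4, with all IL-4 libraries above (log2 fold change 0.598, SE 0.14, adjusted p = 0.0204). The common chain *Csf2rb* and the IL-33 receptor *Il1rl1* were not called, at -0.22 and -0.31. With single libraries left out, *Il19*, *Mif*, *Tnf* and *Il5ra* were each not called at least once (IL-4 libraries 1, 2 and 3 and unstimulated libraries d and f; adjusted p up to 0.0959, 0.143, 0.161 and 0.108). A gene on the opposite strand overlaps exons of *Il1b*, *Il16* and *Il1rap*. *Csf2rb* overlaps another gene on the same strand. Reads could also come from near-identical copies of *Mif* (*C230062I16Rik*) and *Csf2rb* (*Csf2rb2*).

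In number, though not as a share of its members, the antioxidant list held the most falls of any list here. Cells defend against oxidants with glutathione, thioredoxin and peroxiredoxin, and many genes of these systems are driven by the transcription factor NRF2 (*Nfe2l2*) through antioxidant response elements. Of 45 tested genes of the NADPH oxidase and antioxidant list, 16 were lower and 3 higher (median log2 fold change -0.29), and 13 and 0 kept the call whichever library was left out. *Hmox1* (ENSMUSG00000005413, chromosome 8, 75093621 to 75100589), haem oxygenase, was at 1113, 778 and 1276 CPM without and 216, 236 and 267 CPM with IL-4. The highest IL-4 library was far below the lowest unstimulated one (log2 fold change -2.14, SE 0.18, adjusted p = 9.61e-05). *Prdx1*, a peroxiredoxin, was at 1392, 1589.6 and 1475 CPM without and 339, 352 and 432 CPM with IL-4. It too was low in all IL-4 libraries (log2 fold change -1.99, SE 0.13, adjusted p = 2.63e-05). *Txnrd1*, thioredoxin reductase, was at 325, 672 and 342 CPM without and 114, 124 and 112 CPM with IL-4. Library e was the highest of the 6, and the groups did not overlap (log2 fold change -1.94, SE 0.25, adjusted p = 0.00107). *Gclm*, a subunit of the enzyme that starts glutathione synthesis, was at 396, 513 and 368 CPM without and 116, 137 and 111 CPM with IL-4. *Slc7a11*, the importer of the cystine used in it, was at 511, 406 and 366 CPM without and 108, 146 and 116 CPM with IL-4. For both genes the IL-4 libraries were the low ones (log2 fold changes -1.81 and -1.79, SE 0.15 and 0.17, adjusted p up to 1.46e-04). *Srxn1*, sulfiredoxin, fell from 188 ± 37.5 to 63.4 ± 10.2 CPM (SD, n = 3; adjusted p = 4.26e-04). Exons of *Gclm* overlap a gene on the opposite strand. *Gclm* overlaps another gene on the same strand. Near-identical copies exist for *Prdx1* (*Gm21399*) and *Slc7a11* (*Gm3756*).

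The other members called lower covered the same systems. *Nqo1* was at 106, 167 and 116 CPM without and 51.7, 51.7 and 42.5 CPM with IL-4, and *Gclc*, the catalytic partner of *Gclm*, was at 72.5, 59.5 and 52.5 CPM without and 25.9, 23.6 and 26.7 CPM with IL-4. Neither overlapped, with log2 fold changes of -1.41 and -1.27 (adjusted p up to 0.00118). The glutathione transferase *Gstm1* and the peroxiredoxin *Prdx6* had log2 fold changes of -1.29 and -0.64, and *Cat*, catalase, and *Sod2*, mitochondrial superoxide dismutase, -1.18 and -0.49 (adjusted p up to 0.0312). *G6pdx*, *Pgd* and *Taldo1* belong to the pentose phosphate pathway, which supplies NADPH to these enzymes, and fell with log2 fold changes of -0.89, -0.81 and -0.81 (adjusted p up to 0.0178). *Fth1*, the ferritin heavy chain that stores iron, was at 10520.00, 12526 and 13117 CPM without and 7143, 6110.1 and 6368 CPM with IL-4, and all IL-4 libraries were low (log2 fold change -0.88, SE 0.12, adjusted p = 0.00119). Outside the list, *Akr1b8* and *Ptgr1*, reductases of lipid aldehydes, were among the 15 largest falls, with -2.91 and -2.19 (adjusted p up to 0.00119). *Nfe2l2* was at 159, 122 and 143 CPM without and 154, 164 and 153 CPM with IL-4, and *Keap1*, whose product marks NRF2 for breakdown, was at 93.04, 105 and 98.7 CPM without and 117, 120.5 and 133 CPM with IL-4. Neither was called (adjusted p = 0.503 and 0.133), and protein levels were not measured. *Cybb*, the core of the oxidase that makes superoxide, overlapped between the groups (log2 fold change -0.05). The 3 members called higher were *Mgst2*, *Mgst1* and *Mt2*, with 1.004, 0.66 and 0.65 (adjusted p up to 0.0416). *Nqo1*, *Gclc*, *Gstm1*, *Prdx6*, *G6pdx*, *Pgd*, *Taldo1*, *Nfe2l2* and *Keap1* were chosen after their values were seen, to complete the group. Macrophage markers were lower in the same libraries, at a summed 3568 ± 309 and 2871 ± 213 CPM without and with IL-4, and their part in these falls was not tested. *Cat*, *Sod2*, *Pgd*, *Mgst2*, *Mgst1* and *Mt2* lost the call in at least 1 fit that left out a library, among IL-4 libraries 1, 2 and 3 and unstimulated libraries d, e and f, at adjusted p-values of up to 0.0931, 0.163, 0.0828, 0.182, 0.07197 and 0.109. *Sod2* in a fit of all 18 libraries, *Mgst2* under DESeq2 and *Mgst2* with no filter on low counts lost it too. *G6pdx*, *Keap1* and *Mt2* share exon positions with genes of the other strand. Another gene holds a near-identical copy of *Gstm1* (*Gstm2-ps1*) and *Akr1b8* (*Akr1b10*).

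**Figure D3:**
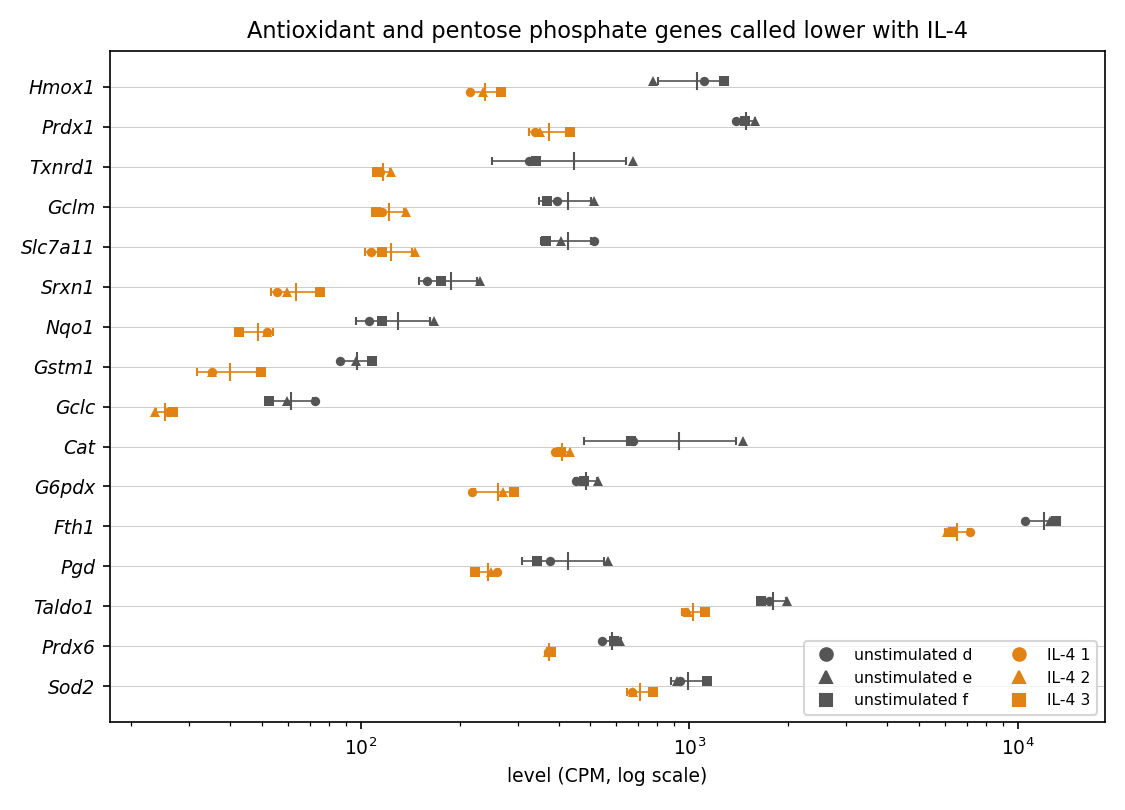
Level in each library (CPM, log scale) of the 16 members of the antioxidant list called lower with IL-4, with unstimulated libraries d to f in grey and IL-4 libraries 1 to 3 in orange; vertical ticks are means and bars 1 SD (n = 3). For every gene shown, the 3 IL-4 libraries lie below the 3 unstimulated ones, and library e is the highest of the 6 for 10 of the 16, such as *Txnrd1* and *Cat*.

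Interferon-stimulated genes rose in number, by modest folds. Of 57 tested, 24 were higher and 1 lower (median log2 fold change 0.37), and 12 and 0 kept the call whichever library was left out (13, 12 and 14 higher without IL-4 libraries 1, 2 and 3). *Gbp7*, a guanylate-binding protein gene, was at 730.1, 348 and 539 CPM without and 1439, 1369 and 1542 CPM with IL-4. Library e was the lowest of the 6, and all IL-4 libraries were above (log2 fold change 1.43, SE 0.22, adjusted p = 0.00277). *Ifi47*, an immunity-related GTPase, was at 1092, 1035 and 1202 CPM without and 2095, 2072 and 2199.5 CPM with IL-4. The IL-4 libraries were all high and close together (log2 fold change 0.94, SE 0.11, adjusted p = 4.84e-04). *Isg15*, a ubiquitin-like modifier, was at 953, 840.2 and 1040.1 CPM without and 1548, 1399 and 1915 CPM with IL-4, without overlap (log2 fold change 0.78, SE 0.14, adjusted p = 0.00614). *Parp14*, *Eif2ak2*, *Irgm1*, *Herc6* and *Ifit1*, with log2 fold changes of 1.201, 1.08, 0.996, 0.99 and 0.56, were higher too (adjusted p up to 0.0192), and PARP14 is known as a cofactor of STAT6. The much used markers *Irf7*, *Mx1* and *Rsad2* were not called, with 0.07, 0.26 and 0.30, and *Ifit3b* was lower (-0.66, adjusted p = 0.0217). Of the 5 tested interferon-induced transmembrane genes, 2 were lower: *Ifitm6* fell from 14.1 ± 0.463 to 2.57 ± 0.412 CPM and *Ifitm1* from 153 ± 63.1 to 70.97 ± 7.001 CPM (SD, n = 3; adjusted p up to 0.0171). Genes of peptide loading on MHC class I are interferon targets as well. Of 19 tested 8 were higher, and 2 kept the call (3, 4, 3 and 5 higher without IL-4 libraries 1, 2 and 3 and library f). *Tap1* was at 218, 212 and 236 CPM without and 335, 385 and 358 CPM with IL-4 and *Tap2* was at 148, 117 and 149.7 CPM without and 234, 266 and 222 CPM with IL-4, with the IL-4 libraries high for both (adjusted p up to 0.00461). *Psmb9*, *Nlrc5* and *H2-T23* followed with 0.97, 0.704 and 0.67 (adjusted p up to 0.0252), while *B2m* was not called (0.22). For MHC class II, 1 of 10 genes was higher, the master regulator *Ciita* at 0.833, 0.331 and 1.32 and 4.57, 3.16 and 2.59 CPM (adjusted p = 0.0432), and *H2-Ab1*, *H2-Aa* and *Cd74* overlapped. The calls of *Eif2ak2*, *Irgm1*, *Ifit1*, *Ifit3b*, *Ifitm1*, *Psmb9*, *Nlrc5*, *H2-T23* and *Ciita* ended without 1 or more of IL-4 libraries 1, 2 and 3 and unstimulated libraries d, e and f, with adjusted p-values of up to 0.08796, 0.0613, 0.0795, 0.114, 0.0816, 0.0805, 0.0576, 0.114 and 0.211. *Ciita* under DESeq2 lost it too. A gene on the opposite strand overlaps exons of *Ifi47*, *Eif2ak2*, *Irf7*, *Tap1*, *Tap2*, *Psmb9* and *Nlrc5*. *Gbp7*, *Ifi47*, *Parp14*, *Herc6* and *Cd74* overlap another gene on the same strand. Reads could also come from near-identical copies of *Isg15* (*AC151275.1*), *Ifit3b* (*Ifit3*), *Ifitm1* (*Gm7676*) and *H2-T23* (*H2-T-ps*).

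Of 16 costimulatory and checkpoint genes, 5 were higher and 1 lower, and 4 and 1 kept the call. Beside *Pdcd1lg2*, *Cd101* was at 11.1, 12.1 and 17.6 CPM without and 77.995, 60.3 and 79.3 CPM with IL-4 and *Cd69*, an early activation marker, was at 73.04, 74.7 and 64.7 CPM without and 299.8, 321 and 250.4 CPM with IL-4. Every IL-4 library was high for both (adjusted p up to 9.89e-05). *Cd274*, the gene of PD-L1, and *Cd80* and *Cd86* were not called, with 0.36, -0.07 and 0.38. *Cd200r1*, an inhibitory receptor, was at 420.2, 454 and 410.4 CPM without and 213, 255 and 223 CPM with IL-4. It was the member that fell (log2 fold change -0.89, SE 0.12, adjusted p = 0.00121). Among 23 NF-kB genes 4 were higher and 1 lower, and 0 and 0 kept the call. *Nfkbia*, the gene of the inhibitor IκBα, had the largest rise, at 469, 294 and 457 CPM without and 915, 911 and 640.02 CPM with IL-4 (log2 fold change 1.02, SE 0.20, adjusted p = 0.00911). Of 33 immediate early genes 3 were higher and 1 lower, and 0 kept the call (7 and 7 higher without libraries d and e). These are 9.09 and 3.03%, near the 5.97 and 4.35% of all genes tested. *Fos*, *Egr1* and *Jun* were not called, with -0.50, 0.35 and 0.77. When IL-4 library 1 or 2 was left out, *Nfkbia* was not called (adjusted p up to 0.0591). Exons of *Cd274* and *Jun* overlap a gene on the opposite strand.

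Receptors by which phagocytes recognise microbes and debris fell more often than they rose. Of 16 tested C-type lectin receptors, 4 were lower and 2 higher, and 4 and 1 kept the call. *Clec4n* (ENSMUSG00000023349, chromosome 6, 123229843 to 123247021), the gene of the fungal receptor Dectin-2, was at 196, 375 and 309.8 CPM without and 29.1, 28.1 and 25.4 CPM with IL-4. Each of the IL-4 libraries was far below (log2 fold change -3.41, SE 0.23, adjusted p = 2.63e-05). *Clec4d* was at 271, 323 and 403 CPM without and 112, 104 and 108 CPM with IL-4, and *Clec4e*, the gene of Mincle, was at 725, 601 and 817 CPM without and 405, 437 and 428 CPM with IL-4. With *Clec4a1* they are the members called lower, with log2 fold changes of -3.41, -1.62, -0.75 and -1.25, and lie on chromosome 6, from 122921848 to 123289870. Of the 5 other members there, *Clec4a3* and *Clec4a2*, chosen after their values were seen, were not called (-0.48 and -0.05), and 3 were too low to test. *Clec7a*, the gene of Dectin-1, lies on the same chromosome from 129461591 to 129472779. It was at 171, 209 and 198 CPM without and 439, 434 and 419.9 CPM with IL-4. It rose in all IL-4 libraries (log2 fold change 1.16, SE 0.12, adjusted p = 2.50e-04). Of 14 scavenger receptors 5 were lower and 1 higher, and 3 and 1 kept the call (3 and 3 lower without IL-4 libraries 1 and 2). *Marco* was at 204, 171 and 209 CPM without and 30.8, 27.7 and 27.2 CPM with IL-4 (log2 fold change -2.77, SE 0.14, adjusted p = 1.59e-05). *Cd36*, which takes up oxidised lipid, was at 96.4, 104 and 137 CPM without and 28.2, 36.7 and 34.2 CPM with IL-4. The IL-4 libraries were low for it too (log2 fold change -1.77, SE 0.18, adjusted p = 2.23e-04). *Cd5l*, *Msr1* and *Cd68* had log2 fold changes of -1.16, -0.71 and -0.71 and *Olr1* of 1.14 (adjusted p up to 0.0228). *Msr1* and *Cd68* lost the call in at least 1 fit that left out a library, among IL-4 libraries 1, 2 and 3 and unstimulated library f, at adjusted p-values of up to 0.114 and 0.0605. Near-identical copies exist for *Clec4a2* (*Clec4b1*).

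Of 30 Fc, TREM, paired and Siglec receptors, 11 were lower and 4 higher, and 5 and 0 kept the call (8 higher without library e; 6, 7 and 6 lower without IL-4 libraries 1, 2 and 3). *Lilr4b* was at 1244, 1269 and 978 CPM without and 536, 553 and 438 CPM with IL-4 and *Fcgr4*, an activating IgG receptor, was at 78.6, 103 and 85.1 CPM without and 35.4, 37.6 and 48.7 CPM with IL-4. Both were low in all IL-4 libraries, with -1.19 and -1.14 (adjusted p up to 0.002395). *Treml4*, *Siglec1* and *Pilra*, with log2 fold changes of -2.81, -1.49 and -1.33, fell as well (adjusted p up to 0.0267), and *Cd300lf* and *Fcrls*, with log2 fold changes of 0.696 and 1.29, rose (adjusted p up to 0.0318). The log2 fold change of *Treml4* ran from -3.97 to -2.39 as single libraries were left out. Of 25 Toll-like receptor and adaptor genes 4 were lower and 1 higher, and 2 and 1 kept the call. *Tlr13*, the sensor of bacterial ribosomal RNA, was at 40.8, 47.4 and 39.6 CPM without and 17.7, 20.8 and 19.4 CPM with IL-4. All IL-4 libraries were low (log2 fold change -1.14, SE 0.16, adjusted p = 0.00164), as they were for *Cd180* (-0.82, adjusted p = 0.00412). *Tlr4* was not called (-0.26), and the inflammasome adaptor *Pycard* rose (0.89, adjusted p = 0.00564). *Marco*, *Cd5l* and *Csf1r* are macrophage markers, and of the 18 members of that list tested 7 were lower, 2 of them whichever library was left out (2, 2, 4 and 4 lower without IL-4 libraries 1, 2 and 3 and library f). The member with most counts, *C1qc*, was at 741, 699 and 1022 CPM without and 734, 724 and 902 CPM with IL-4, which overlapped. *Csf1r* was at 367, 485 and 400.4 CPM without and 237, 254 and 291 CPM with IL-4 (log2 fold change -0.68, SE 0.14, adjusted p = 0.0118). The part of macrophage RNA in the falls of these receptors was not tested. The calls of *Treml4*, *Siglec1*, *Cd300lf*, *Fcrls* and *Csf1r* ended without 1 or more of IL-4 libraries 1, 2 and 3 and unstimulated library f, with adjusted p-values of up to 0.132, 0.0602, 0.0673, 0.1201 and 0.0807. *Pilra*, *Cd180*, *Pycard* and *Csf1r* share exon positions with genes of the other strand. *Lilr4b* overlaps another gene on the same strand. Another gene holds a near-identical copy of *Lilr4b* (*Lilrb4a*), *Pilra* (*Pilrb1*) and *Cd300lf* (*Cd300ld*).

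Genes of secreted defence proteins were also counted. Of 13 tested antimicrobial and neutrophil-type genes, 5 were lower and 1 higher (median -0.62), and 3 and 0 kept the call (3, 3 and 3 lower without IL-4 libraries 1 and 2 and library f). *Lcn2*, which withholds iron from bacteria, was at 154, 144 and 185 CPM without and 25.9, 31.6 and 32.7 CPM with IL-4. The IL-4 libraries were all low (log2 fold change -2.42, SE 0.16, adjusted p = 2.63e-05). *Slpi*, a protease inhibitor, was at 1032, 1090.2 and 1281 CPM without and 393, 395 and 462 CPM with IL-4, and *Hp*, haptoglobin, was at 23.9, 25.3 and 30.2 CPM without and 8.56, 3.99 and 5.44 CPM with IL-4. The same held for both, with -1.44 and -2.14 (adjusted p up to 9.54e-04). *Lyz2* fell (-0.62) and *Pglyrp1* rose (0.698; adjusted p up to 0.0214). *Retnlg*, a relative of *Retnla* that neutrophils express, was at 1978, 1927 and 1658 CPM without and 765, 792 and 707 CPM with IL-4, with all IL-4 libraries low (log2 fold change -1.297, SE 0.11, adjusted p = 1.13e-04). *Saa3*, an acute phase protein gene, was at 7635, 6389.5 and 9171 CPM without and 4361, 4315 and 4545 CPM with IL-4 (log2 fold change -0.81, SE 0.13, adjusted p = 0.00372). Of the 10 neutrophil markers tested, 4 fell and 1, *Cxcr2*, rose, while *S100a8* and *S100a9*, the most typical, were at 7.74 and 4.77 CPM and 5.599 and 7.48 CPM without and with IL-4 and were not called. Their part in the falls was not tested. Of 8 tested eosinophil granule genes 3 were higher and 0 lower, and 2 kept the call. *Ear6*, an eosinophil ribonuclease, was at 133, 148 and 133 CPM without and 328, 365 and 352 CPM with IL-4. Every IL-4 library was high (log2 fold change 1.34, SE 0.12, adjusted p = 9.89e-05). *Rnase2a* was at 23.9, 25.3 and 30.2 CPM without and 52.9, 50.5 and 66.9 CPM with IL-4 and *Prg2*, major basic protein, was at 29.2, 47.9 and 28.1 CPM without and 67.2, 58.98 and 62.7 CPM with IL-4 (adjusted p up to 0.0291). *Ear1* and *Ear2* were not called, at -0.26 and -0.13. Of 17 complement genes 1 was higher and 3 lower, and 0 kept the call. With single libraries left out, *Lyz2*, *Pglyrp1* and *Prg2* were each not called at least once (IL-4 libraries 1, 2 and 3 and unstimulated libraries d and f; adjusted p up to 0.126, 0.0666 and 0.115). *Slpi* and *Ear1* overlap another gene on the same strand. Reads could also come from near-identical copies of *Lyz2* (*Lyz1*), *Ear1* (*Ear2*) and *Ear2* (*Ear1*).

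Of 23 tested genes of arachidonic acid enzymes and receptors, 4 were higher and 3 lower, and 2 and 2 kept the call. *Ltc4s*, which makes leukotriene C4, the main leukotriene of eosinophils, was at 3.33, 5.14 and 9.25 CPM without and 23.4, 18.4 and 25.9 CPM with IL-4. Each of the IL-4 libraries was high (log2 fold change 1.89, SE 0.32, adjusted p = 0.00432). *Abcc1*, which exports it, was at 174, 251 and 150.4 CPM without and 62.4, 59.3 and 59.6 CPM with IL-4 and fell in all (log2 fold change -1.67, SE 0.19, adjusted p = 4.26e-04). The shared first steps *Alox5* and *Alox5ap* overlapped, with -0.05 and -0.08. *Ptgs2*, cyclooxygenase 2, was at 40.8, 28.7 and 31.1 CPM without and 77.8, 72.8 and 54.95 CPM with IL-4, with the IL-4 libraries high (log2 fold change 1.04, SE 0.19, adjusted p = 0.00614). *Ptges*, which makes prostaglandin E2 from its product, was at 118, 112 and 135 CPM without and 46.04, 43.5 and 48.5 CPM with IL-4, with the IL-4 libraries low (log2 fold change -1.41, SE 0.13, adjusted p = 1.86e-04). *Lta4h* and *Alox12e* rose and *Pla2g7* fell, with 0.602, 1.14 and -0.54 (adjusted p up to 0.0118). Of 36 lipid genes under PPAR and LXR receptors, 8 were higher and 3 lower, and 5 and 2 kept the call (5 higher without IL-4 library 1; 5 lower without library e). *Scd2*, a fatty acid desaturase, was at 16.7, 9.28 and 12.1 CPM without and 49.7, 49.8 and 53.7 CPM with IL-4. The IL-4 libraries were high (log2 fold change 2.03, SE 0.21, adjusted p = 2.58e-04). *Dgat2*, *Lipg*, *Srebf1*, *Mylip*, *Abcg1* and *Abca1*, with log2 fold changes of 2.48, 1.32, 0.79, 0.67, 0.596 and 0.54, rose too (adjusted p up to 0.0253). *Lipa*, the acid lipase of lysosomes, was at 241, 524 and 257 CPM without and 110.1, 116 and 119.8 CPM with IL-4. Library e was the highest, and the groups did not overlap (log2 fold change -1.57, SE 0.26, adjusted p = 0.00408). *Plin2* fell (-0.48, adjusted p = 0.0345), and *Fabp4* and *Lpl* were not called. Of 21 cholesterol genes 1 was higher and 2 lower (0 and 1 kept). The synthesis gene *Sqle* overlapped, with a log2 fold change of -0.18. *Lta4h*, *Alox12e*, *Pla2g7*, *Dgat2*, *Abcg1*, *Abca1* and *Plin2* lost the call in at least 1 fit that left out a library, among IL-4 libraries 1, 2 and 3 and unstimulated library f, at adjusted p-values of up to 0.0673, 0.0662, 0.0799, 0.051000, 0.121, 0.0954 and 0.183. A gene on the opposite strand overlaps exons of *Ltc4s*, *Alox5ap*, *Pla2g7* and *Srebf1*. *Scd2* and *Srebf1* overlap another gene on the same strand. Near-identical copies exist for *Scd2* (*Scd1*) and *Plin2* (*Gm12551*).

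Of 30 adhesion genes 6 were higher and 4 lower, and 3 and 0 kept the call (3, 3 and 11 higher without IL-4 libraries 1 and 3 and library e). *Cd34*, a sialomucin of progenitors that mouse eosinophils also carry, was at 3.05, 3.15 and 4.53 CPM without and 27.01, 27.4 and 38.9 CPM with IL-4. It was high in all IL-4 libraries (log2 fold change 3.09, SE 0.26, adjusted p = 9.61e-05). *Pecam1* was at 77.8, 94.8 and 84.8 CPM without and 149, 149 and 149 CPM with IL-4, and *Itgb5* and *Itgb8* rose as well (log2 fold changes 0.79, 1.51 and 1.06, adjusted p up to 0.01404). The integrin chains by which eosinophils leave the blood, *Itga4*, *Itgb1* and *Itgb2*, fell with -0.72, -0.51 and -0.52 (adjusted p up to 0.03699), while *Itgam* overlapped (0.06) and *Itgax* rose (0.77, adjusted p = 0.0276). Of 15 tetraspanins 2 were lower, and 0 kept the call, among them *Cd9*, from 1812 ± 461 to 1117 ± 156 CPM (SD, n = 3; adjusted p = 0.0332). Matrix, protease and repair genes changed both ways, 10 of 40 higher and 7 lower, and 6 and 1 kept the call (6 higher without IL-4 library 2; 1, 1, 1 and 3 lower without IL-4 libraries 1, 2 and 3 and library f). *Mmp9*, a gelatinase, was at 147, 246 and 153 CPM without and 32.1, 37.9 and 35.8 CPM with IL-4, low in all IL-4 libraries (log2 fold change -2.37, SE 0.21, adjusted p = 1.09e-04). *Timp1*, an inhibitor of such proteases, was at 49.7, 48.04 and 61.7 CPM without and 133, 131 and 167 CPM with IL-4, high in all of them (log2 fold change 1.43, SE 0.16, adjusted p = 3.93e-04). *Inhba*, which encodes activin A, was at 28.9, 17.7 and 28.7 CPM without and 68.1, 71.6 and 80.6 CPM with IL-4 (log2 fold change 1.56, SE 0.20, adjusted p = 9.49e-04). *Mmp13*, *Nrg1* and *Bmp7* rose with 1.55, 1.95 and 3.43 (adjusted p up to 0.0163), and *Thbs1* fell (-0.65, adjusted p = 0.0278). The log2 fold change of *Bmp7* ran from 3.03 to 4.90 as single libraries were left out. *Tgfb1* was at 78.9, 194 and 74.6 CPM without and 66.8, 67.96 and 81.7 CPM with IL-4, which overlapped. The calls of *Itgb8*, *Itga4*, *Itgb1*, *Itgb2*, *Itgax*, *Cd9*, *Bmp7* and *Thbs1* ended without 1 or more of IL-4 libraries 1, 2 and 3 and unstimulated libraries d and f, with adjusted p-values of up to 0.0671, 0.09302, 0.0814, 0.146, 0.107, 0.131, 0.09996 and 0.1003. Exons of *Cd34*, *Itga4*, *Cd9* and *Nrg1* overlap a gene on the opposite strand. *Itgam* overlaps another gene on the same strand. Another gene holds a near-identical copy of *Itgb5* (*Gm38317*) and *Itgb2* (*Gm14699*).

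Of 23 targets of hypoxia-inducible factors 8 were higher and 1 lower, and 3 and 0 kept the call (3, 4, 3, 5 and 4 higher without IL-4 libraries 1, 2 and 3 and libraries d and f). *Vegfa*, an inducer of vessel growth, was at 179.97, 179 and 131 CPM without and 313, 312 and 269.9 CPM with IL-4. All IL-4 libraries were high (log2 fold change 0.87, SE 0.15, adjusted p = 0.00427), as for *Ero1l* and *Egln1*, with 0.703 and 0.96 (adjusted p up to 0.00471). *Hif1a* itself was the member that fell (-0.59, adjusted p = 0.0369). Glycolysis and glucose transport had 2 of 21 genes higher, *Aldoc* and *Pdk1*, with 0 kept, and without library e 10 were higher. *Hk2*, *Ldha* and *Slc2a1* were not called, with 0.36, 0.45 and -0.25. The lysosome list had 6 of 39 genes lower and 1 higher, with 3 and 1 kept (3 and 3 lower without IL-4 libraries 1 and 3). *Ctsb* fell from 921 ± 127 to 539 ± 38.1 CPM and *Gpnmb* from 76.9 ± 13.4 to 35.2 ± 6.61 CPM (SD, n = 3; adjusted p up to 0.00411). Genes of tRNA charging and of the ATF4 amino acid response had 5 of 30 lower (1, 1 and 2 lower without IL-4 libraries 1, 2 and 3), among them *Slc7a11*, *Mthfd2* and *Slc3a2*, the partner chain of *Slc7a11* (log2 fold changes -1.79, -0.81 and -0.52, adjusted p up to 0.0174). Among 24 enzymes of amino acids and polyamines 2 were higher and 3 lower, with 1 and 0 kept (5 lower without library e). *Ido1*, which degrades tryptophan, was at or under the floor without IL-4 and at 5.71, 7.48 and 3.63 CPM with it, a ratio and interval of 12.5 (5.84 to 32.1) (adjusted p = 0.00287). *Hdc*, which makes histamine, rose by 0.56 log2 units (adjusted p = 0.0287). With single libraries left out, *Hif1a*, *Aldoc*, *Pdk1*, *Mthfd2*, *Slc3a2* and *Hdc* were each not called at least once (IL-4 libraries 1, 2 and 3 and unstimulated libraries d and f; adjusted p up to 0.137, 0.0886, 0.1403, 0.0878, 0.101 and 0.136). *Hif1a*, *Slc2a1* and *Ctsb* share exon positions with genes of the other strand. *Hif1a* overlaps another gene on the same strand. Reads could also come from near-identical copies of *Ldha* (*Gm9247*).

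Large housekeeping groups moved little by fold. Of 75 tested nuclear genes of the respiratory chain 2 were lower (0 kept, median -0.11). More of them lay below 0 than above, 55 against 20, and at an unadjusted p under 0.05 11 were lower and 1 higher. Of 67 cytosolic ribosomal protein genes 3 were lower (0 kept, median -0.11), with 47 below 0 and 20 above. At an unadjusted p under 0.05, 10 were lower and 2 higher. The share of ribosomal protein genes in all counts was 0.917, 1.09 and 0.987% in libraries d, e and f and 0.886, 0.864 and 0.897% in the IL-4 libraries (exact two-sided permutation p = 0.1, the smallest possible). The 7 tested mitochondrially encoded mRNAs and the 4 sex-linked genes, *Xist* among them, were not called by edgeR or by DESeq2, nor at an unadjusted p under 0.05. Of 32 genes of ER chaperones and the unfolded protein response, edgeR called 0, against 5 lower at an unadjusted p under 0.05 and 1 lower by DESeq2. Of 14 heat shock genes 1 was lower, the mitochondrial chaperone *Hspa9* (log2 fold change -0.88, SE 0.14, adjusted p = 0.00359). Of 28 genes of the BCL2 family and apoptosis 2 were higher and 2 lower (1 and 0 kept). Each is 7.14%, near the 5.97 and 4.35% of all genes tested. *Bcl2l11*, the gene of the death factor BIM, was at 38.05, 31.97 and 32.3 CPM without and 59.5, 59.6 and 60.9 CPM with IL-4, and *Pmaip1*, the gene of NOXA, was at 179, 246 and 158 CPM without and 111, 114 and 91.5 CPM with IL-4. The first was high and the second low in all IL-4 libraries (log2 fold changes 0.82 and -0.88, adjusted p up to 0.0106), and the survival gene *Mcl1* overlapped (-0.09). Of 25 cell cycle genes 3 were higher, with 2 kept (5 higher without library e). *Ccnd2*, cyclin D2, was at 53.9, 28.7 and 48.5 CPM without and 106, 103 and 111 CPM with IL-4 (log2 fold change 1.298, SE 0.21, adjusted p = 0.00347), and *Pcna* and *Mki67* were not called. *Pmaip1* lost the call without IL-4 library 3, at an adjusted p of up to 0.0585. A gene on the opposite strand overlaps exons of *Ccnd2*. Near-identical copies exist for *Pcna* (*Pcna-ps2*) and *Mki67* (*Gm44521*).

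**Figure D4:**
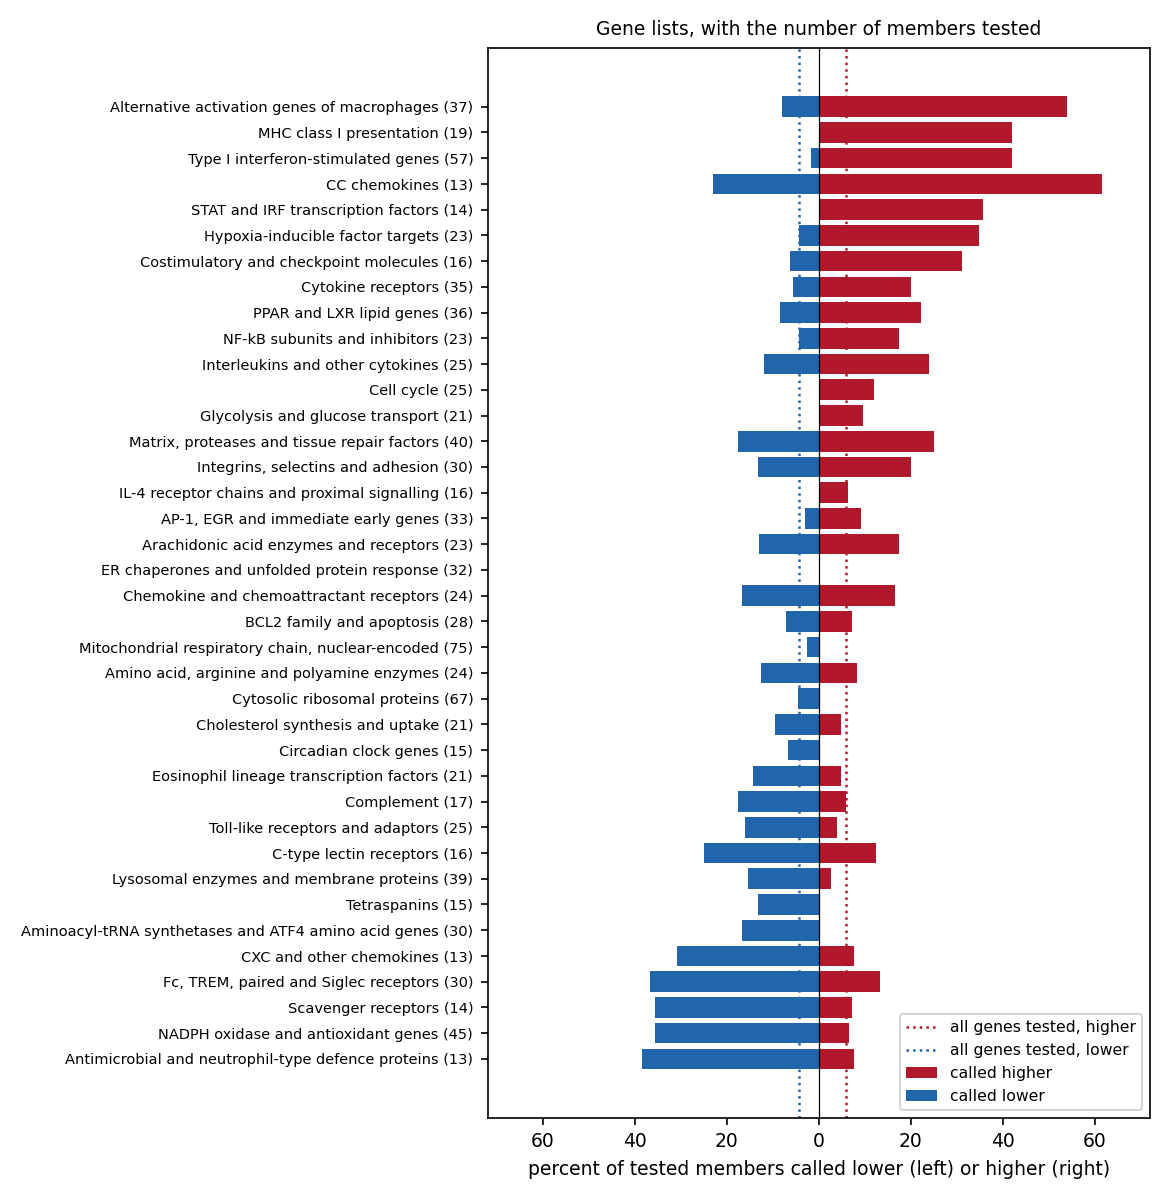
Percent of tested members called higher (right, red) or lower (left, blue) with IL-4 in each programme list with at least 13 members tested (numbers in brackets); dotted lines are the percents over all tested genes, 5.97% higher and 4.35% lower. Alternative activation, MHC class I, interferon-stimulated and CC chemokine genes reach furthest right, and antimicrobial, Fc and TREM receptor, scavenger and antioxidant genes furthest left.

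Promoters of some of these genes were read, since groups of genes moved together. Each is 300 bases, 250 before and 50 after the RefSeq start, on GRCm38.p6, and 460 genes called higher, 378 called lower and 7949 tested genes matched by symbol. TTC and GAA with any 4 bases between, the spacing STAT6 prefers, were searched for on both strands, which read alike. They were in 6.95% of all promoters, 5.65% of those of tested genes, 7.83% of those called higher and 5.29% of those called lower. The same letters with 3 bases between, the spacing of other STAT proteins, were in 6.82%, 9.57% and 7.14% of tested, higher and lower genes (8.298% of all). GAAA and GAAA with any 2 bases between, on either strand, a core of the interferon response element that IRF proteins bind, was in 3.52% of tested, 9.78% of higher and 4.497% of lower genes (3.44% of all). TGAC and GC with any 3 bases between, on either strand, a core of the antioxidant response element, was in 14.97%, 17.2% and 14.8% (12.4% of all). A match is a description of the letters and no evidence of binding. Genes chosen for naming were counted where a promoter was at hand. In their first promoter, 9 of 105 called higher, 9 of 101 called lower and 3 of 65 not called hold the STAT6 letters. The percents of tested, higher and lower genes above also take only the first promoter of a gene. With any promoter of a gene counted, 11, 11 and 4 of these named genes hold the STAT6 letters. Printed are *Pdcd1lg2* (chr19:29410669-29410968, plus strand) and *Edn1* (chr13:42301226-42301525, plus strand), which rose, and *Retnla*, which fell, at chr16:48842359-48842658, plus strand. They are printed 5′ to 3′, with these letters in capitals.
Pdcd1lg2: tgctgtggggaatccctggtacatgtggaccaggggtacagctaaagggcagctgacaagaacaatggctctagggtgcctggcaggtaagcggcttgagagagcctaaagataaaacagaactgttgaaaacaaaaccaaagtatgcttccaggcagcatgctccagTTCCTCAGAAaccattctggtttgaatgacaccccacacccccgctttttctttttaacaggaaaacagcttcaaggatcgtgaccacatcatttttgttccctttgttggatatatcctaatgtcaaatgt
Edn1: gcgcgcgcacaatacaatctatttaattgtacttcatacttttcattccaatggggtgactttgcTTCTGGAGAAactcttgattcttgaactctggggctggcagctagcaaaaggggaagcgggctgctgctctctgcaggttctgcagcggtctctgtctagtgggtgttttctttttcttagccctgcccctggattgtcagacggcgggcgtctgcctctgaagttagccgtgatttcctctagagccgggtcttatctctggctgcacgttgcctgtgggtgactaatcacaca
Retnla: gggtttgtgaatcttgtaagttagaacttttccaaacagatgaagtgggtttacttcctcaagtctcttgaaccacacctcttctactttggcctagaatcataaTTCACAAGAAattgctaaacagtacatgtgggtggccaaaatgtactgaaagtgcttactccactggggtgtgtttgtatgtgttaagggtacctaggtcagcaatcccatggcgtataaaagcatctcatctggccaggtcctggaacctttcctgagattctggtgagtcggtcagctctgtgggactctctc

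Of interferon-stimulated genes with a promoter, 14 of 18 called higher, 1 of 1 called lower and 13 of 24 not called hold the interferon letters, among them *Gbp7* (chr3:142530086-142530385, plus strand), which rose, and of the antioxidant genes, *Prdx1* (chr4:116685349-116685648, plus strand) holds the antioxidant letters. Both are printed in the same way. Of the 16 members of the antioxidant list called lower, 13 have a promoter in the table, and with 1 promoter per gene, as above, 5 of these hold the letters. With all promoters 6 do (*Txnrd1* in 1 of 3, *Pgd* in 1 of 2), and 7 do not, among them *Nqo1* and *Slc7a11*.
Gbp7: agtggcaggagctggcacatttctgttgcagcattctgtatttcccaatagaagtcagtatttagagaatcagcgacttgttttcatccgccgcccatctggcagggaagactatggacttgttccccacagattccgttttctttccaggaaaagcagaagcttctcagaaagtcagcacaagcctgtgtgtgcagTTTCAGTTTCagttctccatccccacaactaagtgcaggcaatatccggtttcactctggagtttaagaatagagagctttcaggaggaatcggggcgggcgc
Prdx1: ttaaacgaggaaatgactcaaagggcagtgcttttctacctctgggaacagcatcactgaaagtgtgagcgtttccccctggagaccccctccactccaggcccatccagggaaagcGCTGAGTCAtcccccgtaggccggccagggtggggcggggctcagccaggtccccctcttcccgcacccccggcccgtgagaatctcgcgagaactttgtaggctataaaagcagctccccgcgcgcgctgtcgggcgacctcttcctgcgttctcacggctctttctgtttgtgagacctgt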

How the data were processed

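RNA of mouse eosinophils was counted in 6 libraries, 3 with IL-4 and 3 without. The deposited values are raw counts per Ensembl gene. By the study's methods the authors aligned reads to GRCm38 and took uniquely mapped reads as counts with HTSeq 0.6.1. They describe CEL-Seq2 libraries, a NextSeq 550 and TopHat2 2.1.0, and also name RNA-Seq data with fastp 0.20.1 and STAR 2.7.2a, and the labels add a HISEQ run, without saying which libraries these were, nor whether molecular identifiers were collapsed or strand was used. Groups were taken from the labels.

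Genes were filtered with filterByExpr, scaled by TMM and tested with the quasi-likelihood F-test of edgeR 4.0.16 (R 4.3.3), and p-values were adjusted over all tested genes by the method of Benjamini and Hochberg. Called means an adjusted p under 0.05. Standard errors are approximate and were derived from F statistic and fold change. Alternatives were DESeq2 1.42.0 (its test, or its size factors in edgeR), no filter, at least 10 counts in every library, a robust dispersion, all 18 libraries in one fit of 6 groups, a call only for genes that changed at least 2-fold, and each library left out in turn. Shares of counts were compared by exact permutation. Genes were annotated with GENCODE M21, promoters were taken from RefSeq (GRCm38.p6), and copies were sought with BLAST+ 2.17.0. Other values and the figures were made with Python 3.11.15, numpy 2.4.6, pandas 2.3.3, scipy 1.17.1 and matplotlib 3.10.9.

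Named genes are, in each direction, the 15 called genes of largest fold change that do not overlap between the groups and reach a mean of 10 CPM in the higher group, and the 5 with the largest difference of CPM. They are also, of each of 58 gene lists, up to 6 called members per direction and fixed anchor members, the 10 genes of widest spread in libraries d to f, and *Il5*. Members and lists were chosen with earlier results of these data known.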

Additional observations from a re-analysis of the deposited data

How the results depend on the processing

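The labels give letters to the unstimulated libraries, but the count files number both groups 1 to 3, in the order d, e and f, so a fit with this number as a replicate block was added after the data were seen. It called 525 genes higher and 350 lower. Deviations from the group means of log2 levels correlated by 0.0746, -0.0413 and -0.0187 for d, e and f with the IL-4 library of their number, and 2 of the 6 libraries (d and IL-4 library 1) correlated best with their own number, so the libraries are taken to share only a number. The 630 genes higher and 459 lower became 1016 and 876 with all 18 libraries in one fit, and 326 and 152 when a change by a factor of 2 was asked as well. With no filter, 915 were higher and 719 lower. With 1 library left out, the number higher ran from 311 to 812 and the number lower from 171 to 582. The fits with 1 library fewer have fewer samples, and the cause of the other differences was not tested. No gene called in both fits had the opposite direction under any alternative. DESeq2 kept 1004 of the 1089 calls, and the fits without libraries d, e and f kept 918, 1027 and 731. Without IL-4 library 1, 2 or 3, 477, 488 and 497 were kept. The fit with the replicate block kept 841. Of 267 called genes chosen for naming, 37 lost the call with the block, and the losses listed by gene above leave the block out. Called under every alternative but the factor of 2 and the block were 222 genes higher and 140 lower. With at least 10 counts asked of every library, the skin barrier list had no member left to give a median. Depth limits the weakest genes, since 3 counts are up to 0.833 CPM.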

Other observations

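The spread among libraries d to f was widest in non-coding transcripts. *Gm38104* was at 25.6, 0.994 and 34.5 CPM without and 62.8, 80.8 and 17.4 CPM with IL-4 and *CT010467.1* at 44.4, 1.66 and 21.7 CPM without and 42.8, 33.1 and 36.3 CPM with IL-4. Both were lowest in library e. Library e was the lowest of the 3 for 91 of the 100 genes with the widest spread, 58 of which are not protein coding and 3 of which were called. Over the 6945 genes at a mean of 10 CPM or more without IL-4 it was the lowest for 2311 and the highest for 3269. *CT010467.1* shares exon positions with genes on both strands. Over all genes, 67 of 997 tested genes that are not protein coding were higher and 10 lower with IL-4 (26, 22, 24 and 112 higher without IL-4 libraries 1, 2 and 3 and library d; 3, 2 and 4 lower without IL-4 libraries 1, 2 and 3). That is 6.72% higher, near the 5.97% of all tested genes, and 1.00% lower, against 4.35%. The 10 genes with most counts in each library held 15.6, 15.8 and 14.9% of the counts in libraries d, e and f and 13.5, 13.99 and 14.3% in the IL-4 libraries (exact two-sided permutation p = 0.1, the smallest that 3 against 3 allows).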
